A study of Mus musculus with 10 samples.

Results

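The cell cycle and mitosis genes examined here are 42 genes of known function, which run from regulators of G1 through DNA replication to G2 and mitosis. Members were chosen by gene symbol, and 34 of the 42 were matched to rows of the deposited tables, which hold 14854 genes. The other 8, Ccnb1, Bub1b, Aurkb, Plk1, Cenpe, Cenpf, Birc5 and Kif11, all act in G2 or mitosis and are not analysed here. The matched members fall into 16 regulators of G1, 9 genes of DNA replication and nucleotide supply, and 9 genes of G2 and mitosis.

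The study sorted cells of the adult mouse lung mesenchyme by FACS into 5 lineages and sequenced the RNA of 2 libraries from each. Pdgfra library 1 has EGFP in place of Pdgfra in its title and was grouped with Pdgfra library 2 because both carry the lineage label GFP. The Axin2:Pdgfra, Axin2, Pdgfra and Negative groups came from mice of the genotype Axin2CreERT2:tdT:PdgfraEGFP, so all of them carry the Cre driver, the tdT reporter and the EGFP allele, and the group names give the label or labels by which cells were sorted. The Wnt2 group came from a second genotype, Wnt2CreERT2:R26REFYP, so for that group lineage and genotype cannot be told apart. CreERT2 is a recombinase that acts after tamoxifen, and it marks cells that expressed its driver gene together with their descendants, so the tdT label records past expression, while EGFP from the Pdgfra gene follows current expression. The labels give no age beyond adult, no treatment and no link from libraries to animals, so how far the spread behind the p-values is technical or between animals is not known.

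The cell cycle is driven by cyclin-dependent kinases (CDKs), which need a cyclin partner to act. D-type cyclins with Cdk4 and Cdk6, then E-type cyclins with Cdk2, phosphorylate Rb1 and its relatives Rbl1 and Rbl2 and so release E2F factors, which switch on the genes of DNA replication. Cyclins A and B with Cdk1 carry the cell through G2 and mitosis, and inhibitors such as Cdkn1a, Cdkn1b, Cdkn1c and Cdkn2c hold the kinases back. In the uninjured adult lung most mesenchymal cells are known to be at rest, and transcripts of replication and mitosis are used as marks of the few cells that divide.

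Values are log2 levels as deposited. In each library many genes share a single lowest value, which is described here as being listed at the lowest value and is read as too low to measure, not as absent. That share of genes was 2.09% at the least, for Pdgfra library 2, and 18.37% at the most, for Negative library 2, and the lowest value itself from 1 to 2.67. Sequencing depth is unknown, since the tables hold no counts. In Negative library 2 and Wnt2 library 2 the X-inactivation transcript Xist was at 8.57 and 7.8, against 16.68 or more elsewhere, and the Y-linked gene Ddx3y was at 10.74 and 11.48. Ddx3y was also at 8.15 in Wnt2 library 1 and at the lowest value in the other 7 libraries. In both of these groups the libraries therefore differed in sex-linked transcripts. Markers of lung mesenchyme (Pdgfra, Pdgfrb, Col1a1, Col1a2, Col3a1, Dcn and Tcf21) were above the lowest value in all 10 libraries, with a summed level (log2 of the summed linear values) of 16.2 to 17.82.

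The promoters of the members were described by motifs that the choice of members did not use. RefSeq promoter sequences (GRCm38.p6) were matched for 11 of the 16 G1 members, 8 of the 9 replication members and 7 of the 9 G2 and mitosis members. They were searched over the 250 bases before the transcription start, on both strands, for 3 motifs. These were the CCAAT box; the cell cycle homology region (CHR), as TTTGAA or TTCGAA, a site of G1 repression in mitotic genes; and the E2F site, as TTTCCCGC, TTTCGCGC, TTTGCCGC or TTTGGCGC. In the member promoters 0 matches of different motifs overlapped. A CCAAT box was found in 7 of 7 G2 and mitosis members, 8 of 8 replication members and 3 of 11 G1 members, beside 39.6% of the 10674 genes of the tables with a promoter. The further cell cycle genes described at the end did not repeat this contrast between roles, at 67.9% for G1, 55.6% for replication and 60.5% for G2 and mitosis. A CHR match was found in 5 of 7 G2 and mitosis members, 2 of 8 replication members and 1 of 11 G1 members, beside 14.9% of those genes. With the members that have a promoter and no row in the tables, it was 7 of 14 G2 and mitosis members, and among further genes the share was 32.1% for G1 and 32.6% for G2 and mitosis. An E2F match was found in 1 of 7 G2 and mitosis members, 3 of 8 replication members and 2 of 11 G1 members, beside 3.8% of those genes.

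The 120 bases before the start are printed for the mitotic kinases Cdk1 and Aurka, the cyclin Ccnb2, Cdc20, the topoisomerase Top2a and the helicase subunits Mcm5 and Mcm6, because these show the motifs, and for Cdkn2c, the one member past a test below that has a promoter in the table. All run 5′ to 3′ on the strand of the gene, and capitals mark CCAAT, CHR and E2F matches in either orientation. They lie on GRCm38.p6 at chr10:69352913-69353032 (minus strand) for Cdk1, chr4:118437344-118437463 (minus) for Cdc20, chr9:70421555-70421674 (minus) for Ccnb2, chr11:99024190-99024309 (minus) for Top2a, chr2:172370571-172370690 (minus) for Aurka, chr1:128359706-128359825 (minus) for Mcm6, chr8:75109389-75109508 (plus) for Mcm5 and chr4:109666757-109666876 (minus) for the first of 2 promoters of Cdkn2c.
Cdk1: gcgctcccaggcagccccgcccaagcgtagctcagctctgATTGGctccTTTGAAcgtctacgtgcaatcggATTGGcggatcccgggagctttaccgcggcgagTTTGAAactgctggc
Cdc20: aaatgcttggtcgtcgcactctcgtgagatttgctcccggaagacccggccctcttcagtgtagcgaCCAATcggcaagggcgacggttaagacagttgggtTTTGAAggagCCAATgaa
Ccnb2: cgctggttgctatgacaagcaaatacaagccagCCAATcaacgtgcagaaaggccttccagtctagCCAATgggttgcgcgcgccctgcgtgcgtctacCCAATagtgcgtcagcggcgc
Top2a: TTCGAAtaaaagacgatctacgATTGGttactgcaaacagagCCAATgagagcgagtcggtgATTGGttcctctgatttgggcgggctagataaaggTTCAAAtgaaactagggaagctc
Aurka: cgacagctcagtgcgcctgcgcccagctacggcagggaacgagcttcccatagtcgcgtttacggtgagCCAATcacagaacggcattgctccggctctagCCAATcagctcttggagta
Mcm6: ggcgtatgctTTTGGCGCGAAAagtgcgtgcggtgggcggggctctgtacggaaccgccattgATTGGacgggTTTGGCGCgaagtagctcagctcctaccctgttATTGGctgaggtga
Mcm5: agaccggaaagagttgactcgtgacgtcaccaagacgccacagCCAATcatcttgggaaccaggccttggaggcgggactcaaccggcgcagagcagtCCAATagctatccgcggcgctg
Cdkn2c: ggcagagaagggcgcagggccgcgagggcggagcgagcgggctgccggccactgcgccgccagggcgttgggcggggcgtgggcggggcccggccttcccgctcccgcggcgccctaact
The Cdk1 window holds a pair of CHR matches and a pair of CCAAT boxes, and that of Cdc20 has a CHR match between its CCAAT boxes. That of Top2a holds 2 CHR and 3 CCAAT matches. The windows of Ccnb2, Aurka and Mcm5 hold CCAAT boxes alone. Outside the printed windows but within the bases searched, Ccnb2 also has a CHR match, and Mcm5 and Cdk1 have E2F matches. The Mcm6 window holds E2F matches beside its CCAAT boxes, while that of Cdkn2c holds none of the 3 motifs. A match is a description of letters and does not show that a factor binds there.

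By their medians G1 regulators were high, replication genes intermediate and mitotic genes low, with exceptions among single genes. Long genes collect more reads. Across the 14054 genes that have a length and passed the filter on low values given below, the deposited values rose with exon length. Spearman's rho was 0.402 across genes, which are not independent replicates. Levels of different genes were therefore compared per kilobase of exon. Whether the deposited values had already been scaled for length is not stated, and the order of single genes depends on this step. Without it the medians of the 3 roles kept their order, at 10.49, 8.46 and 4.74 (log2). On that scale (log2 per kb, mean of 10 libraries) the median was 8.11 for the 16 G1 members, 5.44 for the 9 replication members and 2.64 for the 9 G2 and mitosis members, beside 6.92 for all 14720 genes with a length. Cdkn1a, an inhibitor induced by p53 and stress, was highest at 10.41, followed by Pcna, the sliding clamp of DNA polymerase, at 10.15. Bub1, a kinase of the spindle checkpoint, was lowest at 0.75, and Cdk1 was next at 1.13. Both were at the lowest value in several libraries, and those values enter their means. The order among such low genes is therefore uncertain, which also holds for Ccne1 below. Mki67, the standard marker of dividing cells, was the highest of the mitotic members at 4.38. The G1 members Ccne1 (1.95), Cdk2 (3.26) and E2f1 (3.45) lay below the mitotic members Mki67, Aurka (4.33) and Ccnb2 (4.13).

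**Figure D1:**
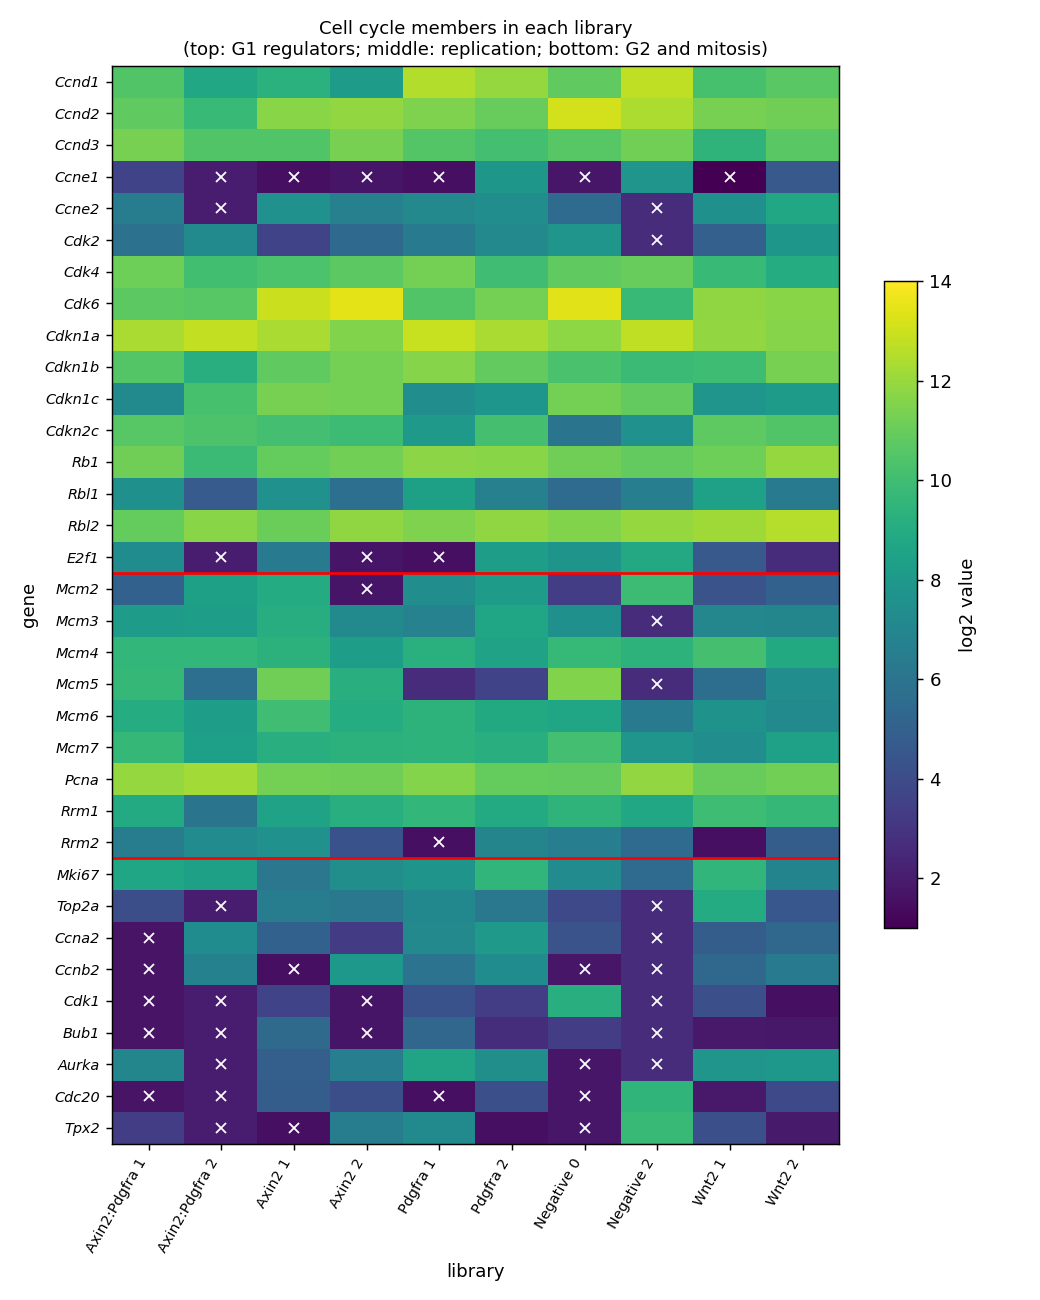
Log2 level of each of the 34 matched members (rows) in each of the 10 libraries (columns, lineage and library number), with white crosses where a gene is listed at the lowest value of its library and red lines between the 3 roles. The crosses gather among the 9 G2 and mitosis members, in the Axin2:Pdgfra and Negative libraries above all, while most G1 members are above the lowest value in every library.

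Tests were limited to genes that reached a log2 value of 6 in 2 or more libraries, which left 31 members and 14177 genes in all. Cdk1, Bub1 and Cdc20 did not pass this filter. Across the 5 lineages 2 of the 31 members differed, Ccnd1 and Cdkn1c (limma F-test, Benjamini-Hochberg adjusted p under 0.05; 5 at unadjusted p under 0.05), beside 8.2% of all genes tested (23.9% at unadjusted p under 0.05). Both are G1 regulators, and none of the 9 replication members or the 6 tested mitotic members passed (0 and 1 at unadjusted p under 0.05). The count of 2 is thus close to the share over all genes. It fell to 0 without Axin2 library 1 or 2, Pdgfra library 1 or 2 or Wnt2 library 1 or 2, and rose to 3 without Axin2:Pdgfra library 1 and 4 without Negative library 2.

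Ccnd1, cyclin D1, which links growth signals to entry into the cycle, was low in cells with the Axin2 label. It was at 10.45 and 8.81 in the Axin2:Pdgfra libraries (log2, libraries in the order of their numbers), 9.33 and 8.2 in Axin2, 12.48 and 11.94 in Pdgfra, 10.83 and 12.74 in Negative and 10.2 and 10.68 in Wnt2. All 4 libraries with the Axin2 label lay below all 4 without it, and the Wnt2 libraries lay between the Axin2 and Pdgfra ones. The F-test gave an adjusted p of 0.0375 (limma). It no longer passed without Axin2 library 1 (adjusted p = 0.0613) or 2 (0.13), Pdgfra library 1 (0.146) or 2 (0.0977) or Wnt2 library 1 (0.0789) or 2 (0.0768).

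After these levels were seen, the effect of each label was tested over 4 libraries against 4, within the genotype that carries both labels. With the Axin2 label (Axin2:Pdgfra and Axin2 against Pdgfra and Negative) Ccnd1 fell by 2.8 ± 0.54 (log2 ± SE; limma, adjusted p = 0.0225; 95% interval -3.97 to -1.64). It was the 1 member of 31 called (4 at unadjusted p under 0.05), beside 1.64% of all genes called, 1.14% called lower and 17.5% at unadjusted p under 0.05. The difference no longer passed when Axin2:Pdgfra library 2 (adjusted p = 0.0635) was left out, nor without Axin2 library 2 (0.117), Pdgfra library 1 (0.167) or 2 (0.0577) or Negative library 2 (0.0663), and 3 members passed without Negative library 0. Since the comparison was chosen on the pattern of Ccnd1, it adds no independent support to the F-test.

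Markers of cell types moved with the same label. All 7 mesenchymal markers were higher on average with it, and 1, Tcf21, passed the test (limma, adjusted p = 0.046; 6 at unadjusted p under 0.05). The 5 endothelial markers had a summed level of 13.31 to 14.41 in the 4 libraries with the Axin2 label and 14.84 to 16.3 in the 4 without, and 2 of 5 fell (limma; 5 of 5 were lower on average). The 5 epithelial markers were at 13.35 to 14.46 and 14.82 to 15.96, with 3 of 5 lower past the test, and the leukocyte markers at 13.21 to 14.2 and 14.54 to 15.58, with 0 of 6 past it (limma; 2 at unadjusted p under 0.05). Erythroid markers were at 8.45 to 9.73 and 10.22 to 16.5, with 3 of 5 lower past the test, and 0 of 3 mesothelial markers passed (0 at unadjusted p under 0.05). No endothelial marker was at the lowest value in any library; Epcam was in Pdgfra library 1, the erythroid marker Alas2 was in Axin2 library 2, and Cd79a and Cd3e were in 5 and 3 libraries. In the Wnt2 libraries, which are of another genotype, the summed levels were 13.98 to 14.29 (endothelial), 12.96 to 13.7 (epithelial), 13.44 to 13.69 (leukocyte) and 6.95 to 11.31 (erythroid). The part of other cell types in the difference of Ccnd1 was not tested. In such bulk samples fewer cells of a type and less RNA per cell cannot be told apart.

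Ccnd2, cyclin D2, was highest in Negative and lowest in Axin2:Pdgfra cells, and its F-test across lineages did not pass (limma, adjusted p = 0.0512). It was at 10.84 and 9.79 in Axin2:Pdgfra, 11.71 and 11.89 in Axin2, 11.47 and 10.99 in Pdgfra, 13.13 and 12.39 in Negative and 11.34 and 11.19 in Wnt2. Both Negative libraries lay above every other library, and both Axin2:Pdgfra libraries below every other. Ccnd2 was lower in Axin2:Pdgfra than in Negative by -2.45 ± 0.51 (limma, adjusted p = 0.0101; 95% interval -3.53 to -1.36), a call that ended without Axin2:Pdgfra library 2 (0.0735). With the Pdgfra label (Axin2:Pdgfra and Pdgfra against Axin2 and Negative, likewise chosen after the levels were seen) it fell by 1.51 ± 0.36 (adjusted p = 0.0213; -2.28 to -0.74), and the 4 labelled libraries lay below the 4 others. That call ended without Axin2:Pdgfra library 2 (0.0621), Axin2 library 1 (0.0618) or 2 (0.0857), Pdgfra library 2 (0.086) or Negative library 0 (0.0541). With the Axin2 label the difference of Ccnd2 was -0.94 ± 0.36 and did not pass (0.198), and the effects of the labels were not tested against each other.

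The levels of the cyclins D1 and D2 are set side by side here without a test. Ccnd2 minus Ccnd1 (a difference of log2 levels, not scaled for length) was 2.38 and 3.69 in Axin2, 0.39 and 0.98 in Axin2:Pdgfra, 1.15 and 0.51 in Wnt2, and -1.01 and -0.96 in Pdgfra. The Negative libraries parted, at 2.29 and -0.35. Ccnd3, cyclin D3, was at 11.36 and 10.48, 10.46 and 11.35, 10.55 and 10.12, 10.6 and 11.23, and 9.48 and 10.68 in Axin2:Pdgfra, Axin2, Pdgfra, Negative and Wnt2. No lineage lay apart from all the others, although both Negative libraries were above both Pdgfra ones. Its F-test had an adjusted p of 0.713 (limma).

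Cdkn1c, an imprinted CDK inhibitor linked to exit from the cycle, was high in Axin2 and Negative cells. It was at 7.21 and 10.21 in Axin2:Pdgfra, 11.33 and 11.3 in Axin2, 7.38 and 7.84 in Pdgfra, 11.26 and 10.89 in Negative and 7.8 and 8.17 in Wnt2. The 4 libraries without the Pdgfra label or the Wnt2 label lay above the other 6, and Axin2:Pdgfra library 2 stood nearest to them. The F-test gave an adjusted p of 0.0447 (limma), and the call ended without any single library of Axin2, Pdgfra, Negative or Wnt2 (adjusted p = 0.0709 to 0.152). With the Pdgfra label Cdkn1c fell by 3.04 ± 0.68 (limma, adjusted p = 0.0152; 95% interval -4.5 to -1.57), a call that ended without Axin2 library 1 (0.0626) or 2 (0.0669) or Pdgfra library 1 (0.0559). The comparison by the Pdgfra label was chosen after the levels were seen, so it adds no independent support to the F-test. Ccnd2 and Cdkn1c were the 2 of 31 members called with this label (4 at unadjusted p under 0.05), beside 6.48% of all genes called, 2.93% called lower and 20.4% at unadjusted p under 0.05. The count fell to 0 without Axin2 library 1 or 2, and to 1 without Axin2:Pdgfra library 2, Pdgfra library 1 or 2 or Negative library 0, and rose to 4 without Negative library 2.

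Markers moved with the Pdgfra label as well. Of 3 mesothelial markers Upk3b and Lrrn4 fell (summed level of the 3 markers 6.2 to 9.34 with the label and 9 to 12.66 without), and Msln, which did not pass, was at the lowest value in Axin2:Pdgfra library 2. Of 5 epithelial markers 2 fell (13.35 to 15.3 and 13.79 to 15.96) and of 5 erythroid markers 1 fell (9.16 to 11.09 and 8.45 to 16.5), while 0 of 5 endothelial and 0 of 6 leukocyte markers passed (limma; 0 and 1 at unadjusted p under 0.05). Of the 7 mesenchymal markers 6 rose and Pdgfrb, the receptor of pericytes, fell. Pdgfra is among the 6, and since its EGFP allele defines the label, its rise is no independent result. The part of these cells in the differences of Ccnd2 and Cdkn1c was not tested.

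**Figure D2:**
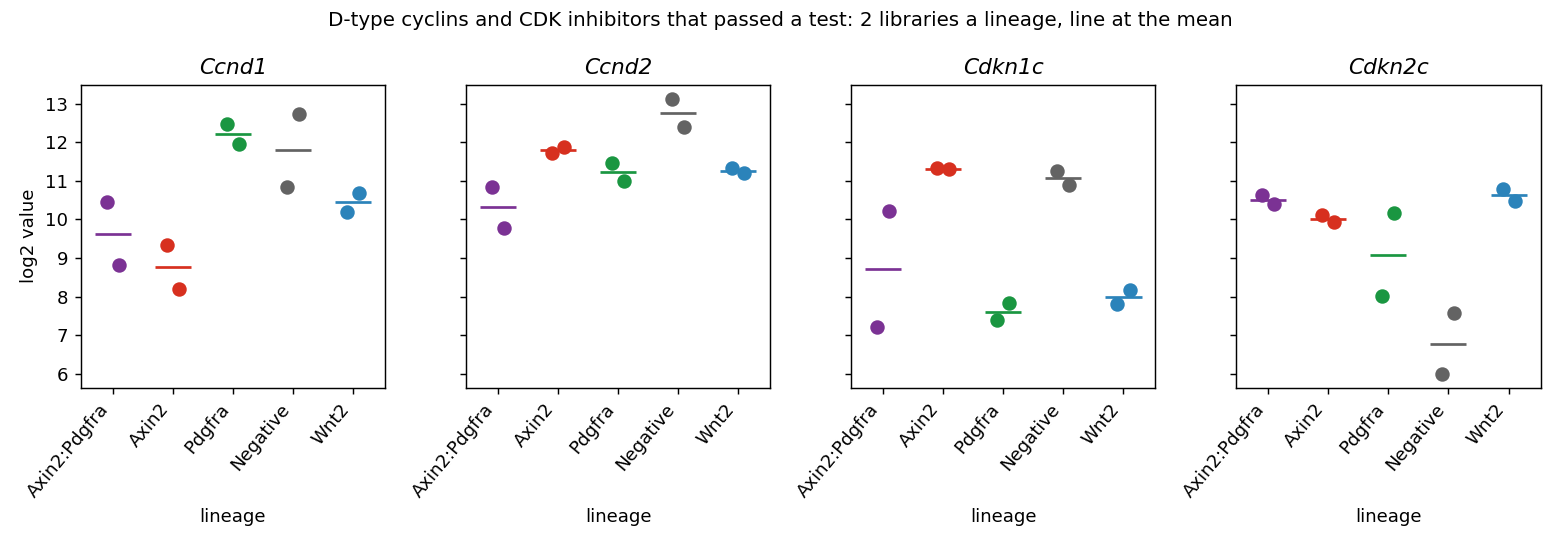
Log2 level of the 4 members past a test in each lineage, with 1 point per library and a line at the mean of 2. Ccnd1 is lower in the 4 libraries with the Axin2 label than in the 4 Pdgfra and Negative ones, Ccnd2 is highest in Negative, Cdkn1c is above 10.8 in Axin2 and Negative, and Cdkn2c is lowest in Negative.

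Cdkn2c, an inhibitor of Cdk4 and Cdk6, was low in Negative cells. It was at 10.62 and 10.39 in Axin2:Pdgfra, 10.11 and 9.92 in Axin2, 8.02 and 10.15 in Pdgfra, 6 and 7.56 in Negative and 10.79 and 10.48 in Wnt2. Both Negative libraries lay below the other 8, and Pdgfra library 1 was the lowest of those. From Negative to Axin2:Pdgfra it rose by 3.73 ± 0.91 (limma, adjusted p = 0.024; 95% interval 1.78 to 5.68). The call ended without Axin2:Pdgfra library 1 (0.0997) or 2 (0.0885), Negative library 0 (0.0726) or Wnt2 library 1 (0.0522).

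Cdkn2c and Ccnd2 were the 2 of 31 members called between Axin2:Pdgfra and Negative, 1 higher and 1 lower, beside 6.72% of all genes called (3.33% higher and 3.39% lower). At unadjusted p under 0.05 there were 4 members, beside 21.3% of all genes. The members' share was close to that of all genes, and the median difference was 0.07 for members and 0.08 for all genes. Only 1 member passed without Axin2:Pdgfra library 1 or 2 or Wnt2 library 1, and 3 passed without Negative library 2. The Negative libraries also held most erythroid RNA (summed level of 5 markers 16.02 to 16.5, against 9.16 to 9.73 in Axin2:Pdgfra, 4 of 5 lower past the test in Axin2:Pdgfra). They held more epithelial RNA (15.92 to 15.96 against 13.35 to 13.96, 3 of 5) and endothelial RNA (14.84 to 16.3 against 13.31 to 13.96, 2 of 5), and less mesenchymal RNA (16.2 to 16.24 against 17.6 to 17.82, 6 of 7 markers higher and Pdgfrb lower in Axin2:Pdgfra). Pdgfra, whose EGFP was used to sort the cells, is among the 6 higher markers. Of 6 leukocyte and 3 mesothelial markers 0 passed (limma; 2 and 3 at unadjusted p under 0.05). The part of these cells in the differences was not tested.

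**Figure D3:**
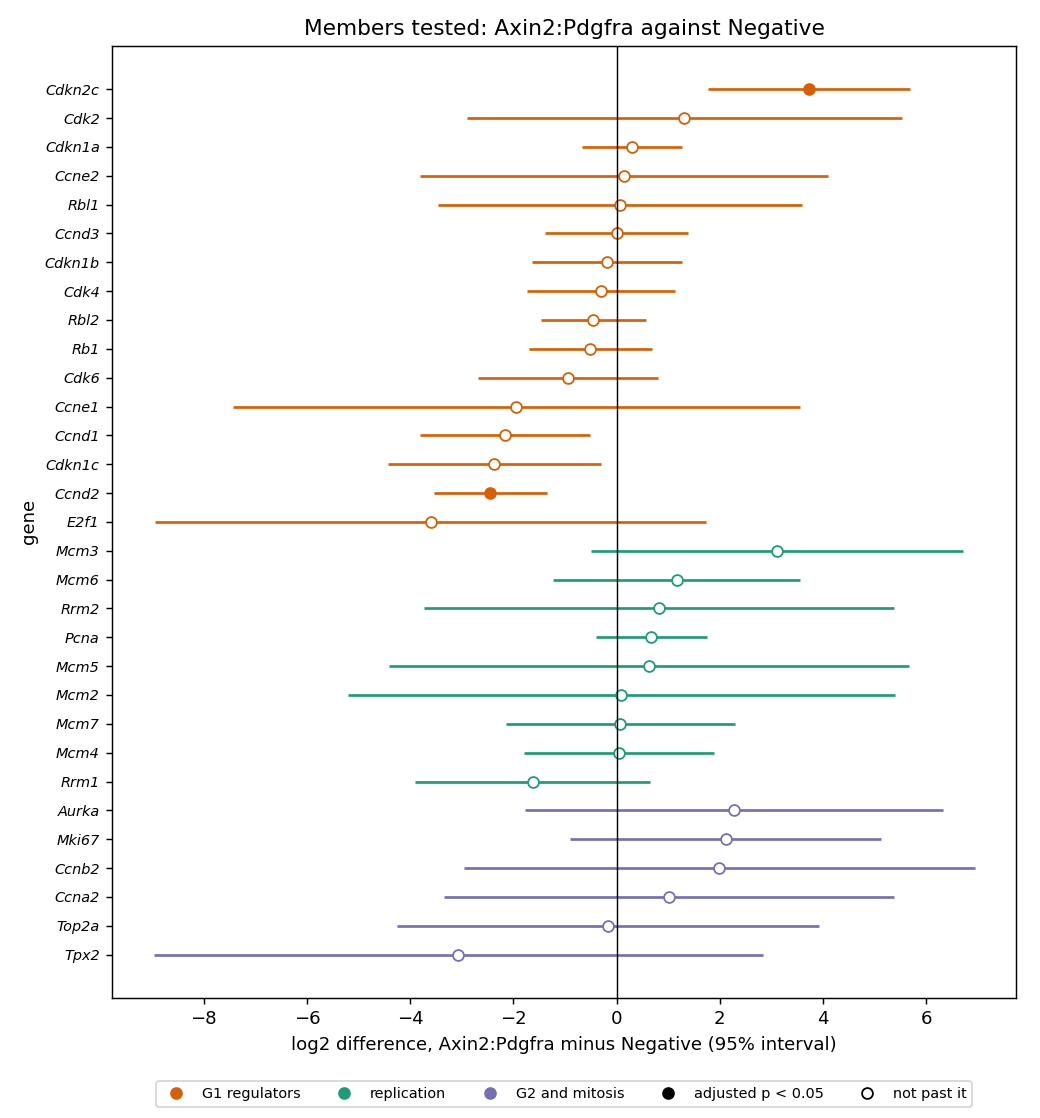
Log2 difference of each of the 31 tested members between Axin2:Pdgfra and Negative (points) with its 95% interval from limma (lines), grouped by role, with filled points past the adjusted threshold. Cdkn2c at 3.73 and Ccnd2 at -2.45 are filled, and the intervals of the mitotic members reach several log2 units to either side of 0.

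The 4 called members rest on the way limma estimated the spread. Without a trend of the variance on the level and without robust estimation, 0 members passed in any comparison, with adjusted p of 0.193 for Ccnd1 and 0.145 for Cdkn1c in the F-test. In that fit Ccnd2 and Cdkn2c reached 0.0786 and 0.0685 between Axin2:Pdgfra and Negative (limma). The share of all genes that passed in that fit is not set beside these values, so the loss of calls is not shown to be particular to the members.

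In the other comparisons 0 members passed. For Axin2:Pdgfra against Axin2 this stood beside 2.3% of all genes (limma; at unadjusted p under 0.05, 3 members beside 14.1% of all genes). For Axin2:Pdgfra against Pdgfra it stood beside 0.0423% (unadjusted 2 members and 12.7%). For Axin2 against Negative it stood beside 0.6% (unadjusted 2 members and 14.2%), for Pdgfra against Negative beside 2.91% (unadjusted 4 members and 17.6%) and for Wnt2 against the mean of the other groups beside 2.16% (unadjusted 2 members and 14.4%). The interaction asks whether the Pdgfra label had another effect in cells with the Axin2 label than in cells without it, and 0 members and 0% of all genes passed (limma; at unadjusted p under 0.05, 4 members beside 9.14% of all genes). These comparisons share groups, so they are not independent of each other. One member passed in Pdgfra against Negative without either Axin2:Pdgfra library and 2 without Negative library 2. Without Negative library 0, 2 passed in Axin2 against Negative and 1 in Axin2:Pdgfra against Axin2, and 1 passed in the latter also without Negative library 2.

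Cdk6, a partner of D-type cyclins, was high in Axin2 cells without passing a test. It was at 10.71 and 10.6 in Axin2:Pdgfra, 12.97 and 13.46 in Axin2, 10.47 and 11.28 in Pdgfra, 13.39 and 9.8 in Negative and 11.83 and 11.68 in Wnt2. The Axin2 libraries lay above the Axin2:Pdgfra, Pdgfra and Wnt2 ones, while the Negative libraries were 3.59 apart and spanned nearly the whole range. The difference of Axin2:Pdgfra from Axin2 was -2.56 ± 0.82 and did not pass (limma, adjusted p = 0.135). The same difference passed without Negative library 0 (0.00999) or 2 (0.00593), which are not part of it but enter the estimate of the spread. Cdk6 then also passed the F-test (0.00677 and 0.00523).

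Cdk4, the other partner of D-type cyclins, was at 11.11 and 10.07 in Axin2:Pdgfra, 10.3 and 10.73 in Axin2, 11.3 and 10.04 in Pdgfra, 10.82 and 10.96 in Negative and 9.82 and 9.06 in Wnt2. The Wnt2 libraries were the lowest, at a difference from the other groups of -1.23 ± 0.53 that did not pass (limma, adjusted p = 0.307). Cdk2, the partner of cyclin E, was lower and more scattered, at 5.88 and 7.21, 3.62 and 5.42, 6.42 and 7.1, 7.8 and 2.67, and 5 and 7.86 in the same order of lineages. Its 2.67 in Negative library 2 was the lowest value of that library, and no lineage stood apart.

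Of the E-type cyclins, Ccne1 was near the limit of measurement and Ccne2 was above it in most libraries. Ccne1 was at 3.62 and 2.06 in Axin2:Pdgfra, 1.55 and 1.75 in Axin2, 1.55 and 7.88 in Pdgfra, 1.79 and 7.77 in Negative and 1 and 4.65 in Wnt2, and 6 of these 10 were the lowest value of the library. Ccne2 was at 6.47 and 2.06, 7.59 and 6.68, 7.12 and 7.37, 5.56 and 2.67, and 7.55 and 8.8 in the same order, with Axin2:Pdgfra library 2 and Negative library 2 at their lowest value. E2f1, the factor freed by loss of Rb1 binding, was at 7.32 and 2.06, 6.3 and 1.75, 1.55 and 8.23, 7.72 and 8.87, and 4.64 and 2.64. The libraries of a lineage thus lay far apart for E2f1 in Axin2:Pdgfra, Axin2 and Pdgfra, and only in Negative were both high.

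The inhibitors Cdkn1a and Cdkn1b and the pocket protein Rb1 did not pass a test. Cdkn1a was at 12.36 and 12.8 in Axin2:Pdgfra, 12.35 and 11.54 in Axin2, 12.9 and 12.33 in Pdgfra, 11.79 and 12.78 in Negative and 11.88 and 11.65 in Wnt2, a range of 1.35 over all libraries. Cdkn1b, an inhibitor that accumulates in resting cells, was at 10.53 and 9.19, 10.83 and 11.28, 11.64 and 10.89, 10.24 and 9.85, and 9.96 and 11.34 in the same order. Rb1 was at 11.17 and 9.88, 10.91 and 11.21, 11.73 and 11.7, 11.2 and 10.87, and 11.14 and 11.95. No lineage lay apart from all the others in any of these, and the adjusted p of the F-test was 0.5, 0.439 and 0.482 (limma).

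Rbl2, the pocket protein of resting cells and part of the complex that represses cell cycle genes, was at 10.93 and 11.68 in Axin2:Pdgfra, 11.06 and 11.84 in Axin2, 11.49 and 11.87 in Pdgfra, 11.56 and 11.95 in Negative and 12.14 and 12.55 in Wnt2. Both Wnt2 libraries were above the other 8, without passing the F-test (adjusted p = 0.489). Rbl1, its relative of cycling cells, was at 7.54 and 4.74, 7.56 and 5.77, 8.4 and 6.67, 5.56 and 6.58, and 8.43 and 6.43. Lineages overlapped for Rbl1, except that both Pdgfra libraries lay just above both Negative ones.

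Among the replication genes Pcna was the steadiest. It was at 11.92 and 12.21 in Axin2:Pdgfra, 11.29 and 11.17 in Axin2, 11.58 and 10.94 in Pdgfra, 10.9 and 11.89 in Negative and 10.98 and 11.22 in Wnt2, with an F-test adjusted p of 0.564 (limma). Both Axin2:Pdgfra libraries were above the other 8, with Negative library 2 close behind. Pcna also acts in DNA repair and is not limited to dividing cells.

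The Mcm genes encode the subunits of the helicase that opens replication origins, and in a complex they are needed in equal parts. Over all libraries Mcm4 lay between 8.3 and 10.14, Mcm7 between 7.37 and 10.1 and Mcm6 between 6.33 and 10.02. Mcm2 was more scattered, at 5.06 and 8.4 in Axin2:Pdgfra, 8.99 and 1.75 in Axin2, 7.38 and 8.17 in Pdgfra, 3.36 and 9.91 in Negative and 4.32 and 5.03 in Wnt2. Mcm5 ranged from 2.67 to 11.52, and both extremes were Negative libraries. With the Axin2 label Mcm5 was higher by 3.83 ± 1.66, which did not pass (limma, adjusted p = 0.253). Without Negative library 2 Mcm5 passed the F-test (0.0408). Mcm3 ran from 2.67, the lowest value of Negative library 2, to 9.1.

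Ribonucleotide reductase, which makes the building blocks of DNA, has a large subunit Rrm1 and a small subunit Rrm2 that is made for replication. Rrm1 was at 6.01 to 9.95 and was lowest in Axin2:Pdgfra library 2. Rrm2 was at 6.51 and 7.25 in Axin2:Pdgfra, 7.56 and 4.26 in Axin2, 1.55 and 6.89 in Pdgfra, 6.55 and 5.55 in Negative and 1.55 and 4.83 in Wnt2. The Axin2:Pdgfra and Negative libraries did not reach the low values seen in Pdgfra and Wnt2, and the F-test gave an adjusted p of 0.617 (limma).

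Of the mitotic members Mki67 alone was above the lowest value in every library. It was at 8.63 and 8.4 in Axin2:Pdgfra, 6.17 and 7.43 in Axin2, 7.72 and 9.57 in Pdgfra, 7.25 and 5.55 in Negative and 9.57 and 6.84 in Wnt2. Both Axin2:Pdgfra and both Pdgfra libraries were above both Negative and both Axin2 libraries, and the Wnt2 libraries spanned this gap. The differences did not pass: Pdgfra minus Negative was 2.24 ± 1.4 (limma, adjusted p = 0.431; 95% interval -0.77 to 5.25), and Axin2:Pdgfra minus Axin2 was 1.71 ± 1.4 (adjusted p = 0.672; -1.29 to 4.72).

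Other mitotic members were lower. Top2a, the topoisomerase that untangles chromosomes, was at 4.12 and 2.06 in Axin2:Pdgfra, 6.5 and 6.22 in Axin2, 7.06 and 6.22 in Pdgfra, 3.85 and 2.67 in Negative and 8.99 and 4.55 in Wnt2. Ccna2, cyclin A, was at 1.7 and 7.32, 5.06 and 3.3, 7.12 and 7.99, 4.32 and 2.67, and 4.83 and 5.4 in the same order. Top2a and Ccna2 were thus low in both Negative libraries and above 6 in both Pdgfra libraries, but for neither did Pdgfra minus Negative pass (limma, adjusted p = 0.382 and 0.32).

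Aurka, a kinase of the spindle poles, came nearest to a call among the tested mitotic members. It was at 6.96 and 2.06 in Axin2:Pdgfra, 4.91 and 6.58 in Axin2, 8.6 and 7.43 in Pdgfra, 1.79 and 2.67 in Negative and 7.8 and 7.92 in Wnt2. Both Negative libraries and Axin2:Pdgfra library 2 were at their lowest value, so no fold is given against Negative. The F-test gave an adjusted p of 0.192 and Pdgfra against Negative 0.124 (limma).

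Cdk1, the kinase that drives mitosis, was at 1.7 and 2.06 in Axin2:Pdgfra, 3.62 and 1.75 in Axin2, 4.26 and 3.35 in Pdgfra, 9.22 and 2.67 in Negative and 4.19 and 1.55 in Wnt2. Its single high value, in Negative library 0, stood beside Ccnb2, Aurka, Cdc20 and Tpx2 at the lowest value in the same library. In Negative library 2 Cdc20, which activates the anaphase-promoting complex, was at 9.49 and Tpx2, a spindle assembly factor, at 9.76, while Top2a, Ccna2, Ccnb2, Cdk1, Bub1 and Aurka were at the lowest value. Elsewhere Cdc20 did not exceed 4.83 and Tpx2 did not exceed 7.24. Ccnb2, cyclin B2, lay between 1.55 and 7.92 and was at the lowest value in 4 libraries, and Bub1 from 1.7 to 5.5, also at the lowest value in 4.

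The number of mitotic members at the lowest value was compared with the share of all genes there. Of the 9, the count was 5 and 6 in Axin2:Pdgfra, 2 and 2 in Axin2, 1 and 0 in Pdgfra, 4 and 6 in Negative and 0 and 0 in Wnt2. The share of all genes was 8.63% and 15%, 8.09% and 9.75%, 8.02% and 2.09%, 10.17% and 18.37%, and 2.92% and 3.19% in the same order. The 3 libraries with no such member had the smallest shares, and the 2 with 6 had the largest. Of the 5581 genes whose mean level lay within that of the mitotic members (2.87 to 7.71), 37.9% and 44.4% were at the lowest value in Axin2:Pdgfra library 2 and Negative library 2, and 5.4% to 8% in the 3 libraries with none. At similar shares of all genes, Axin2:Pdgfra library 1 had 5 of 9 members there (55.6%, beside 21.8% of genes of like level), and Axin2 library 1 and Pdgfra library 1 had 2 and 1. The part of low measurability in the mitotic values was not tested.

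**Figure D4:**
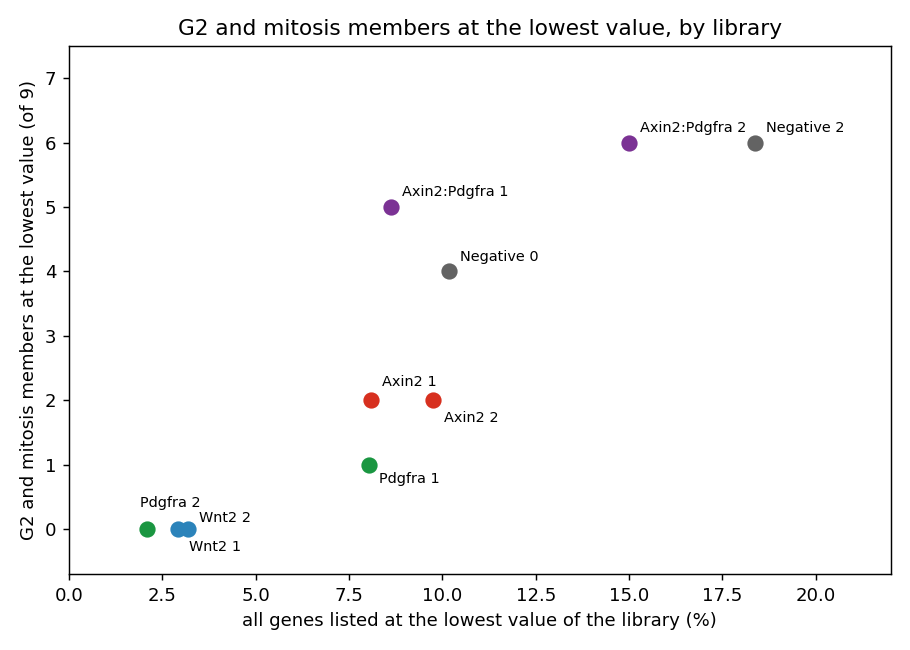
Number of the 9 G2 and mitosis members listed at the lowest value (vertical axis) against the share of all genes listed there (horizontal axis, %), with 1 point per library coloured by lineage. The count runs from 0 in Pdgfra library 2 and both Wnt2 libraries, at shares of 2.09% to 3.19%, to 6 at shares of 15% and 18.37%.

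Likeness between the tested mitotic members was weak in the median and varied widely between pairs. No pairs of other genes of like level were set beside them. Pearson's r between pairs of the 6 tested mitotic members over the 10 libraries had a median of 0.237 (15 pairs, -0.371 to 0.727), as a description, since the libraries share their lowest values and lineages. The median was -0.016 for 36 pairs of replication members and 0.011 for 120 pairs of G1 members. The most alike pair was Rb1 and Rrm1 (r = 0.843), followed by Cdkn1a and Mcm2 (0.834) and Cdkn1b and Rb1 (0.832). Mcm3, Mcm6 and Mcm7 formed the closest pairs of helicase subunits (0.766 for Mcm3 with Mcm6 and 0.747 for Mcm6 with Mcm7).

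Of 160 further genes of the cycle, chosen from textbook roles, 127 were matched and 114 tested (32 of G1, 39 of replication and 43 of G2 and mitosis). Across the lineages 4 of the 114 differed (limma F-test; 22 at unadjusted p under 0.05), beside the same 8.2% of all genes. These were Tubb5 (adjusted p = 0.00762), Btg2 (0.0117), Ccng2 (0.0187) and Dnmt1 (0.0474). The call of Tubb5 held whichever library was omitted, that of Btg2 ended without Pdgfra library 1 (0.063), that of Ccng2 without Wnt2 library 1 (0.1) or 2 (0.0768), and that of Dnmt1 in 8 of 10 such fits, all but those without a Negative library (up to 0.154). Between Axin2:Pdgfra and Negative 5 rose and 2 fell (23 at unadjusted p under 0.05), beside 3.33% and 3.39% of all genes and 21.3% unadjusted, so the count was near the share over all genes. Between Pdgfra and Negative Btg2 and Ccng2 rose, beside 2.03% of all genes called higher there. In Axin2:Pdgfra against Axin2, Axin2:Pdgfra against Pdgfra, Axin2 against Negative and the interaction 0 of the 114 passed (limma; 8, 14, 13 and 12 at unadjusted p under 0.05), beside 2.3%, 0.0423%, 0.6% and 0% of all genes called and 14.1%, 12.7%, 14.2% and 9.14% unadjusted. Mybl2, Gmnn and Cdkn2a are not analysed here.

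Btg2, an antiproliferative gene induced by p53 and by tissue handling, was higher with the Pdgfra label. It was at 14.89 and 15.06 in Axin2:Pdgfra, 13.97 and 14.01 in Axin2, 15.3 and 15.12 in Pdgfra, 13.48 and 14.16 in Negative and 14.06 and 14.38 in Wnt2. The 4 libraries with the label lay above the other 6, and the rise was 1.19 ± 0.19 (limma, adjusted p = 0.0017; 95% interval 0.78 to 1.6), beside 3.55% of all genes called higher. It passed with any 1 library omitted (adjusted p at most 0.0147) and not without trend and robust estimation (0.129). Against Negative, Btg2 rose by 1.15 ± 0.27 in Axin2:Pdgfra (0.0192) and 1.39 ± 0.27 in Pdgfra (0.0127), the first ending without Axin2:Pdgfra library 1 (0.0634) or 2 (0.121) or Negative library 0 (0.0766), the second without Pdgfra library 1 (0.132) or 2 (0.076). Ccng2, an unusual cyclin found in resting cells, rose with the label by 1.86 ± 0.41 (adjusted p = 0.0131), from 10.5, 9.83, 9.52 and 8.53 in Axin2 and Negative to 11.34, 11.72, 11.14 and 11.63 in Axin2:Pdgfra and Pdgfra. That call ended without Axin2 library 2 (0.062) or Pdgfra library 2 (0.0657). Against Negative, Ccng2 rose by 2.5 ± 0.58 in Axin2:Pdgfra (0.0174) and 2.36 ± 0.58 in Pdgfra (0.0418). The first ended without Axin2:Pdgfra library 2 (0.0975) or Negative library 2 (0.0814), and the second in all such fits but those without an Axin2:Pdgfra library or Negative library 0 (up to 0.211). Both Wnt2 libraries were higher still for Ccng2, at 12.2 and 11.89.

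Axin2:Pdgfra cells also had more Gas1, a membrane protein of growth arrest, than Negative cells, by 2.72 ± 0.73 (limma, adjusted p = 0.0386), and less Tfdp2, a partner of E2F factors, and Dnmt1, the methyltransferase that follows replication, by -3.07 ± 0.85 (0.0439) and -2.55 ± 0.69 (0.0407). The calls of Gas1 and Dnmt1 ended whichever library was left out (0.0526 to 0.163 and 0.051 to 0.155), and that of Tfdp2 in 7 of the 10 such fits, for all but Axin2:Pdgfra library 2 and Axin2 library 1 or 2 (up to 0.251). Tubb5, a tubulin with near-identical relatives and so uncertain, was lower in Wnt2 than in the other groups by -1.08 ± 0.23 (0.0251), at 12.31 and 12.55 against 12.77 to 14.11. That call ended without Axin2 library 1 (0.0591) or 2 (0.0579), Pdgfra library 1 (0.0522) or Wnt2 library 1 (0.472) or 2 (0.197), beside 1.44% of all genes called lower. With the Axin2 label Tubb5 rose by 1.02 ± 0.21 (0.0262), beside 0.501% of all genes called higher, a call that ended without any 1 library of Axin2:Pdgfra, Axin2 or Pdgfra (0.0599 to 0.144). From Negative to Axin2:Pdgfra it rose by 1.15 ± 0.29 (0.0296), a call that ended without either library of Axin2:Pdgfra or Axin2, Negative library 0 or Wnt2 library 2 (0.0502 to 0.111). Without trend and robust estimation the calls of Btg2, Ccng2, Dnmt1, Gas1, Tfdp2 and Tubb5 given here ended.

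The remaining genes of the naming rule showed no such order. Foxm1, the factor that drives mitotic genes, was at 1.7 and 6.85 in Axin2:Pdgfra, 4.1 and 4.74 in Axin2, 5.95 and 6.82 in Pdgfra, 4.32 and 6.33 in Negative and 5.64 and 8.13 in Wnt2. Cdt1, which licenses origins, did not exceed 4.75 except in Negative library 0, at 8.17, where Cdk1 and Mcm5 were also at their highest. In that library Ccnb2, Aurka, Cdc20 and Tpx2 were at the lowest value, so the members did not rise there together. Cdkn2b, an inhibitor induced by TGF-beta, was at 5.57 and 7.37, 6.22 and 9.78, 6.76 and 7.48, 10.04 and 7.05, and 4.19 and 7.54. Libraries of different lineages overlapped for Foxm1 and Cdkn2b.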

How the data were processed

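RNA-seq of FACS-sorted cells gave 10 libraries, 2 in each of 5 lineages, grouped by the labels (Negative libraries are numbered 0 and 2, all others 1 and 2). STAR, limma and the mouse build mm9 are named per the submitters' processing notes; versions, read counter, annotation and the use made of limma were not stated there. The deposited tables hold 1 log2 value per Ensembl gene and library; this scale was inferred from the values. The highest value (19.25) is common to all libraries and medians lie between 9.1 and 9.11, so a change of total RNA cannot be seen. The lowest value is shared by 2.09% to 18.37% of genes, and sequencing depth and counting error are unknown.

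Symbols were matched to 14720 of 14854 identifiers. Genes reaching a log2 value of 6 in 2 or more libraries were tested (14177). A linear model of the 5 group means was fitted to all libraries (5 residual degrees of freedom). The fit used limma 3.58.1 with R 4.3.3 (eBayes with trend and robust, two-sided). Benjamini-Hochberg adjustment was made over all genes tested, with a threshold of 0.05. The fit was also run on simulated normal values. These had no shared lowest value, so that run does not cover genes near it. Group differences are log2 ± SE. The members, further gene lists, markers and tests were chosen with earlier results of these data known, and the label effects after the levels were seen. Given library by library were members past a test, anchors of each role, and further cell cycle genes past a test. Exon lengths came from GENCODE M21 and promoters from RefSeq, both on GRCm38, not the build mm9; no position was taken from the deposited tables. Alternatives were filters on low values, a common lowest value, renewed quantile normalization, another variance estimate, a replicate block, a term for the second index sequence and leaving out each library. Of the further cell cycle genes past a test, 1 is counted but not reported here.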

Additional observations from a re-analysis of the deposited data

How the results depend on the processing

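The number of members past the threshold was recomputed under each alternative. The share of all genes past it in the same fits is given neither here nor in the sections above. A changed count is therefore not shown to be particular to the members. Without the filter on low values, with a common lowest value (2.67) and with renewed quantile normalization no count changed. The stricter filter (log2 of at least 8 in at least 2 libraries) raised the F-test count from 2 to 4, adding Ccnd2 and Cdkn2c, with 22 members tested. Without trend and robust estimation the counts fell to 0 for the F-test, Axin2:Pdgfra against Negative and both label effects (limma). With the second index sequence as a term the F-test count was 1. Leaving out each library gave 0 to 4 members for the F-test and the Pdgfra label, 0 to 3 for the Axin2 label, 1 to 3 for Axin2:Pdgfra against Negative, 0 to 2 for Axin2 or Pdgfra against Negative, 0 to 1 for Axin2:Pdgfra against Axin2, and 0 in Axin2:Pdgfra against Pdgfra, Wnt2 against the rest and the interaction. Where 1 library of a group remained, it was assumed to vary like the other groups. Calls of members and of further genes were often lost when a library was left out. Leaving out a library outside a comparison kept its difference as it was and changed only the estimate of the spread. The F-test has no direction, so these fits say little about the direction of a call.

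Same-numbered libraries did not deviate together (r across genes between -0.061 and 0.028 for the 6 pairs of groups that share numbers), so a number is not taken to pair samples. With the replicate block, in which Negative library 0 has a level of its own, the count was 1 for Axin2:Pdgfra against Axin2 (Cdk6), 2 for Axin2 against Negative (Cdk6 and Ccnd1), 1 for the Pdgfra label (Ccnd2) and 3 for the Axin2 label (Ccnd1, Cdk6 and Mcm5). It stayed at 2 for the F-test, with Cdk6 and Ccnd1, and for Axin2:Pdgfra against Negative, where the 2 members were Ccnd2 and Ccnd1. The label effects and their alternatives were added after seeing the data. Members near the lowest value are limited by the depth of each library, which is unknown.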

Other observations

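Large differences between the libraries of a lineage, with 1 library high or 1 low, were frequent among the cell cycle genes. The members and the further genes had lower median levels (7.47 and 6.59, log2) than all genes with an exon length (8.89). Their shares over all members and all further genes are not matched for level. Replicates of a lineage differed by more than 5 log2 units in 16 of 170 pairs of a member and a lineage (9.41%), in 53 of 635 (8.35%) for the further cell cycle genes, and in 4.75% over all genes. Among mitotic members the share was 15.56%, beside 11.18% for all genes whose mean level lay in the same range. Of the 16, 7 were in Negative and 0 in Wnt2 (20.59% and 0% of the members). Over all genes Negative also had the largest share of the 5 lineages (6.92%) and Wnt2 the smallest (2.17%). The Negative cases were Ccne1 (1.79 and 7.77), Mcm2 (3.36 and 9.91), Mcm5 (11.52 and 2.67), Cdk1 (9.22 and 2.67), Cdc20 (1.79 and 9.49), Tpx2 (1.79 and 9.76) and Cdk2 (7.8 and 2.67). Some of these genes were high in library 0 and others in library 2, so neither library was the higher for all of them.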
